A study of Mus musculus with 132 samples.

Results

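The Fos and Jun AP-1 family was followed through bouts of tibial loading in mouse cortical bone. Its 8 genes, Fos, Fosb, Fosl1, Fosl2, Jun, Junb, Jund and Atf3, were taken by symbol from the 23412 gene symbols measured, and all 8 passed the filter on low values that kept 13050 genes (a normalized count of at least 10 in at least 4 libraries). Fosl1 passed that filter through 4 mid-diaphysis libraries that stood apart from the rest, and was under 10 in every other library. Fosb reached 10 in those 4 and in 11 other libraries, all of loaded bone 1 h after a bout. Without the loaded libraries at 1 h, where it was high, Fosb would not have passed the filter.

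AP-1 is a dimer of basic leucine zipper proteins that binds DNA and sets the transcription of nearby genes. Fos proteins pair with Jun proteins, Jun proteins can also pair with each other, and Atf3 is a related zipper protein of the stress response. Several of the genes are immediate early genes, switched on within minutes of a stimulus through kinase cascades and serum response factor, and silenced again soon after. In bone, Fos is needed for osteoclast formation, a splice form of Fosb and an excess of Fosl1 drive bone formation in transgenic mice, and Fosb and Fos are known to answer mechanical strain.

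Cortical bone of 22 female C57Bl/6J mice aged 10 weeks was measured by 3′ messenger RNA sequencing. Each mouse had its left tibia compressed for 1200 cycles on a loading day (peak load 9 N, 4 Hz), and its other tibia served as control. Mice were studied 1 h (5 mice), 3 h (4 mice) or 24 h (4 mice) after 1 bout, on day 8 after 5 daily bouts (5 mice, named 5d), or 24 h after the last of 7 daily bouts (4 mice, named 7d). Each tibia gave 3 libraries after removal of cancellous bone, from the metaphyseal shell, the proximal diaphysis and the mid-diaphysis. Loaded and control libraries of the same mouse were compared, 66 pairs in all, and a difference was called where its p, adjusted by Benjamini and Hochberg over all 13050 genes, was under 0.05. The control limb belonged to a mouse that had been loaded on the other side, and no unloaded mouse was among the samples analysed here.

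One member of the family was called after loading. Fosb rose in loaded bone at 1 h, by a log2 difference of 3.46 ± 0.38 (SE, n = 5 mice) averaged over the 3 segments, and did not pass the threshold at 3 h or later. No other member passed the threshold in a loading comparison, although Atf3 and Junb lay above 0 on average at 1 h. In control limbs, Fosl2 was higher in shell than in mid-diaphysis, and the levels of Jund, Junb and Jun differed between the mice of the 5 times.

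Reads counted on genes numbered 290325 to 5410458 per library, and their medians were 1889382.5 for shell, 1608865.5 for proximal and 1221379.5 for mid-diaphyseal libraries. Values are normalized counts, reads divided by a size factor of the library. The osteocyte gene Dmp1 (median normalized count 151.6) and the osteoblast gene Col1a1 (median 80923.9) were detected in every library, while the osteocyte hormone gene Fgf23 had no read in 128 of them. The 4 mid-diaphysis libraries that stood apart were those of loaded mouse 2 and control mouse 3 at 1 h and of loaded mice 4 and 5 at 5d. Their mesothelial-type genes Msln and Wt1 had medians of 434.9 and 170.7, against at most 48.6 and 6.60 in the other libraries. Another 3 control libraries (proximal mouse 3 at 3 h, proximal mouse 2 and mid-diaphysis mouse 4 at 7d) had the fewest genes detected. In mouse 2 at 3 h the cartilage genes Mia and Col10a1 ran against the segment labels in both limbs, and in a different order. Mia had 1.32, 87.5 and 33.9 for shell, proximal and mid-diaphysis of the loaded limb, against 0, 8.97 and 87.7 for the control limb, while control Mia was higher in shell than mid-diaphysis in all 21 other mice. Loaded Mia ran that way in 17 of the 21 other mice and the other way in 4. For Col10a1 these counts were 19 and 2 in control limbs and 17 and 4 in loaded limbs. Whether the loaded and control libraries of 1 label in mouse 2 at 3 h hold the same segment was not tested. Without that mouse every count of members called below was the same.

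Fosb encodes a Fos protein of the immediate early class. In the metaphyseal shell 1 h after the bout, Fosb was at 5.63, 6.45, 18.8, 17 and 28.0 normalized counts in the loaded limbs of mice 1 to 5, against 1.64, 4.54, 1.66, 1.19 and 2.91 in their control limbs. In the proximal diaphysis it was at 90.5, 36.3, 36.5, 20.3 and 5.46 in loaded limbs, against 0, 2.65, 3.97, 0.93 and 0 in control limbs. In both segments every loaded library lay above every control library, which was the case for 0.161% of the genes tested in shell and 0.314% in proximal diaphysis. In the mid-diaphysis Fosb was at 14.6, 65.1, 73.8, 41.9 and 224.7 in loaded limbs, against 1.96, 0, 43.4, 0 and 0 in control limbs, so the groups overlapped through control mouse 3. That control library was 1 of the 4 that stood apart, as was the loaded library of mouse 2 at 65.1.

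The loaded libraries were higher in all 15 pairs of the same mouse and segment. Averaged over the 3 segments, the log2 differences of the 5 mice were 3.42, 3.28, 2.19, 3.97 and 4.47, which on the scale of log2(normalized count + 1) is an 11-fold rise (95% interval of the log2 difference 2.69 to 4.24, limma adjusted p = 3.23e-06). Fosb was the 1 member called of 8, where 2 of 13050 genes (0.0153%) were called. It passed the filter on low values only with its loaded libraries at 1 h, so its place among these genes draws on the same values. With no filter Fosb was called as well. Without the 4 libraries that stood apart the rise was 3.33 ± 0.36 (adjusted p = 5.56e-06). Among the remaining libraries, the 14 loaded ones at 1 h ran from 5.46 to 224.7 with a median of 24.1, and all others ran from 0 to 6.60 with a median of 0. Of those 14 loaded libraries, 11 lay above all the others. These 11 are also the ones outside the 4 in which Fosb reached 10, the value that the filter used. In bulk bone, more cells of a type that holds the transcript and more transcript per cell cannot be told apart.

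**Figure D1:**
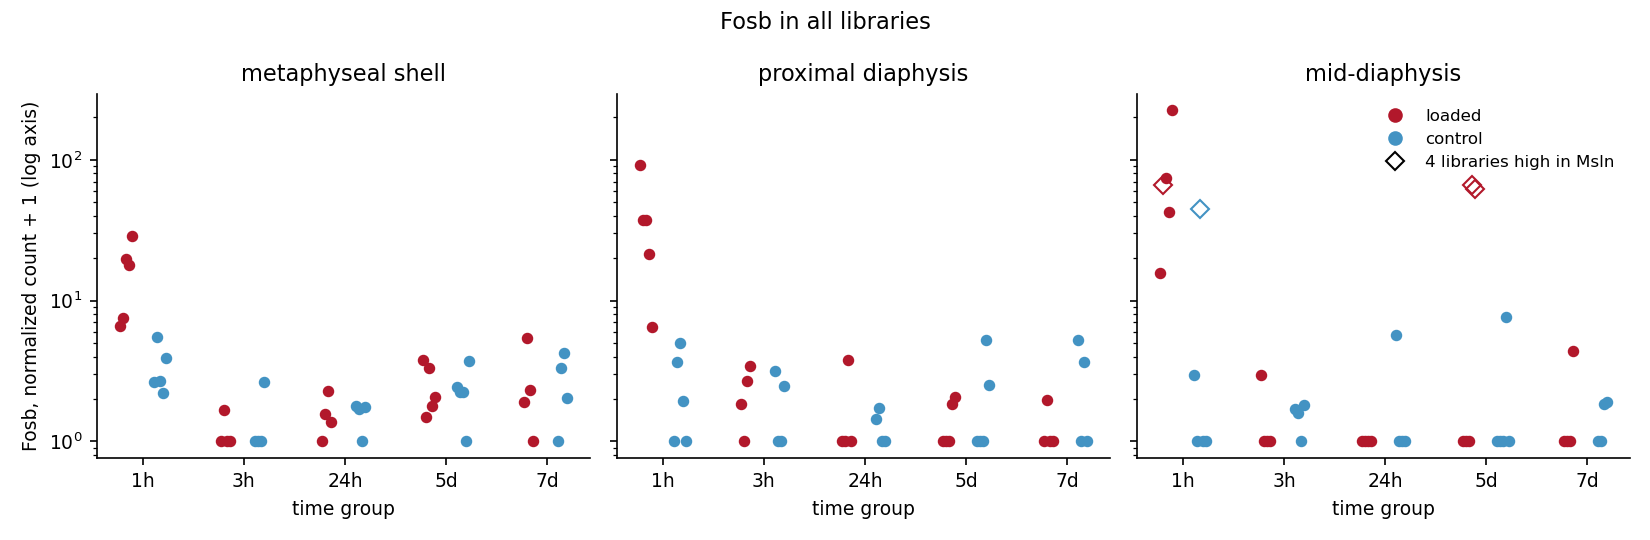
Fosb in every library, as normalized count + 1 on a log axis, by time group in each segment, with loaded limbs in red to the left of control limbs in blue; each point is 1 library and open diamonds are the 4 libraries high in Msln. Loaded libraries at 1 h ran from 5.46 to 224.7 and stood above nearly all others, while from 3 h on the points other than the diamonds were at or under 6.60.

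The rise rested on few reads per library, since 1 read was worth 0.586 to 2.93 normalized counts at 1 h. Summed over 5 mice, Fosb had 84 reads in loaded against 12 in control shell libraries. The proximal diaphysis, where Fosb was called, had 35, 22, 27, 26 and 5 reads in loaded libraries, against 0, 2, 3, 1 and 0 in control libraries. Mid-diaphysis libraries summed to 539 reads in loaded and 75 in control limbs, and 74 of those 75 were in the library of mouse 3 that stood apart. Reads per library were similar between the limbs, with medians of 1.06e+06 in loaded and 1.1e+06 in control proximal diaphysis and of 2.02e+06 in loaded and 2.27e+06 in control mid-diaphysis.

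Promoter sequence was set beside these responses. RefSeq promoters of build GRCm38.p6, from 250 bases before to 50 after the start, matched 7 of the 8 members, all but Fosl1. They were searched on both strands for the cyclic AMP element TGACGTCA, the first letters of that element, TGACG, which every whole element holds, the AP-1 element TGANTCA, and the CArG box bound by serum response factor. None of the 7 held the whole cyclic AMP element (1.79% of 32851 promoters held it), the AP-1 element (7.81%) or the CArG box (1.63%) in this window. The short form TGACG was in 4 of 7, against 20.8% of all promoters. The 150 bases before the start of these 4 are shown because they place TGACG on either strand, in capitals, in the called gene Fosb and in 3 genes that were not called at 1 h.
Fosb, chr7:19310046-19310195, minus strand: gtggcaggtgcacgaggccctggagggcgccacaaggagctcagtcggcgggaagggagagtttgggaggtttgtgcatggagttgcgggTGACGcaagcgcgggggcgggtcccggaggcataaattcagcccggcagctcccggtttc
Fos, chr12:85473740-85473889, plus strand: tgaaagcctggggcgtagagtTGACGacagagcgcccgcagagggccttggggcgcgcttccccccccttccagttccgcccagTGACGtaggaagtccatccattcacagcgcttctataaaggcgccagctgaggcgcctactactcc
Junb, chr8:84978749-84978898, minus strand: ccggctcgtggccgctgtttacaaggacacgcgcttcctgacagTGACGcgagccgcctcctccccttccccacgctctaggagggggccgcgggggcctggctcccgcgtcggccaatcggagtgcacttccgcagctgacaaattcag
Atf3, chr1:191183334-191183483, minus strand: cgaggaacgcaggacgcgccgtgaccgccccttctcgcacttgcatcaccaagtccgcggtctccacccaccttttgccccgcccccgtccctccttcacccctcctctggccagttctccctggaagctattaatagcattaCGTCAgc
The capitals began 60 bases before the start in Fosb, 66 bases before it for the nearer of the 2 in Fos, and 7 bases before it, on the other strand, in Atf3. Fos, with 2 matches, was not called at 1 h. The start sites of RefSeq and GENCODE differ for some members: the Jund window lies wholly before the GENCODE gene, and those of Atf3 and Fosl2 lie inside it. A match is a description of letters and not a measured binding site. By GENCODE, Fosb lies on chromosome 7 from 19302696 to 19310051 on the minus strand, and no other gene overlaps it. Jun, Junb, Jund and Atf3 each overlap a gene on the opposite strand, as does Fosl1.

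Taken by segment at 1 h, Fosb was higher in 5 of 5 mice in each segment. So were 2.94% of the genes tested in shell, 3.59% in proximal diaphysis and 0.628% in mid-diaphysis. The Fosb difference was 2.12 ± 0.44 in shell (limma adjusted p = 0.615), 3.79 ± 0.58 in proximal diaphysis (adjusted p = 0.0103) and 4.49 ± 0.92 in mid-diaphysis (adjusted p = 0.408). The proximal diaphysis was thus the 1 segment where a member was called, against 0% of genes in either other segment. Fosb, which passed the filter only with its loaded libraries at 1 h, was the 1 gene of 13050 called there (0.00766%). Leaving out mouse 1, 2 or 4 ended that call, with values of 3.11, 3.90 and 3.87 (adjusted p up to 0.192), and edgeR on the recovered reads gave it 4.99 with an adjusted p of 0.552. The median residual SD over genes on the log2 scale was 0.70 for shell, 1.38 for proximal and 1.79 for mid-diaphyseal pairs. A test of whether the response differed between the segments gave Fosb an adjusted p of 1.00, and called 0% of genes at 1 h. The 3 segment values are therefore not shown to differ, although without the 4 libraries the mid-diaphysis value was 5.21 (95% interval 3.45 to 6.97, adjusted p = 0.0540).

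Markers of other tissue moved in some of the same pairs. The summed level of 11 skeletal muscle genes ran from 87.4 to 17352.1 in loaded and from 75.0 to 4932.6 in control mid-diaphysis at 1 h, and its mean log2 difference was higher in 4 of 5 mice there, in 1 of 5 for proximal diaphysis and in 2 of 5 for shell. In proximal diaphysis at 1 h, where Fosb was called, the 5 osteocyte markers tested (median -0.56), the 5 osteoclast markers (median -0.93) and the 6 osteoblast markers (median -0.77) all had negative differences, of which none was called and 2, 2 and 1 had an unadjusted p under 0.05. Their part in the Fosb value was not tested. With the muscle difference as a covariate the Fosb average was 3.5 ± 0.41 (adjusted p = 6.51e-06). The 4 mesothelial-type genes summed to between 3.30 and 13.5 in loaded and between 0 and 2.65 in control proximal diaphysis, higher in 5 of 5 mice, and their part in the Fosb value there was not tested.

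At the later times Fosb was at or near 0 in bone of both limbs. At 3 h it was between 0 and 2.42 in loaded and between 0 and 2.16 in control libraries of all segments. At 24 h the range was 0 to 2.78 in loaded and 0 to 4.73 in control libraries. The averages were -0.02 at 3 h, -0.17 at 24 h, 0.53 at 5d and -0.27 at 7d, with adjusted p of at least 0.864. At 5d the average fell to -0.14 without the loaded mid-diaphysis libraries of mice 4 and 5, at 65.4 and 61.1, while the other 3 loaded mid-diaphysis libraries had no Fosb read. The response differed between the 5 times (limma F test, adjusted p = 0.00174), and 6 of 13050 genes (0.046%) passed that test. By edgeR on the recovered reads the same test gave Fosb adjusted p of 0.0759 and 0.0811 under 2 scalings. The response at 1 h exceeded the mean of the other 4 times by 3.45 ± 0.43 (95% interval 2.57 to 4.33, limma adjusted p = 6.39e-05). Fosb was the 1 gene called in that contrast (0.00766%). It passed the filter on low values only with its loaded libraries at 1 h, and with no filter it was called in that contrast as well.

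**Figure D2:**
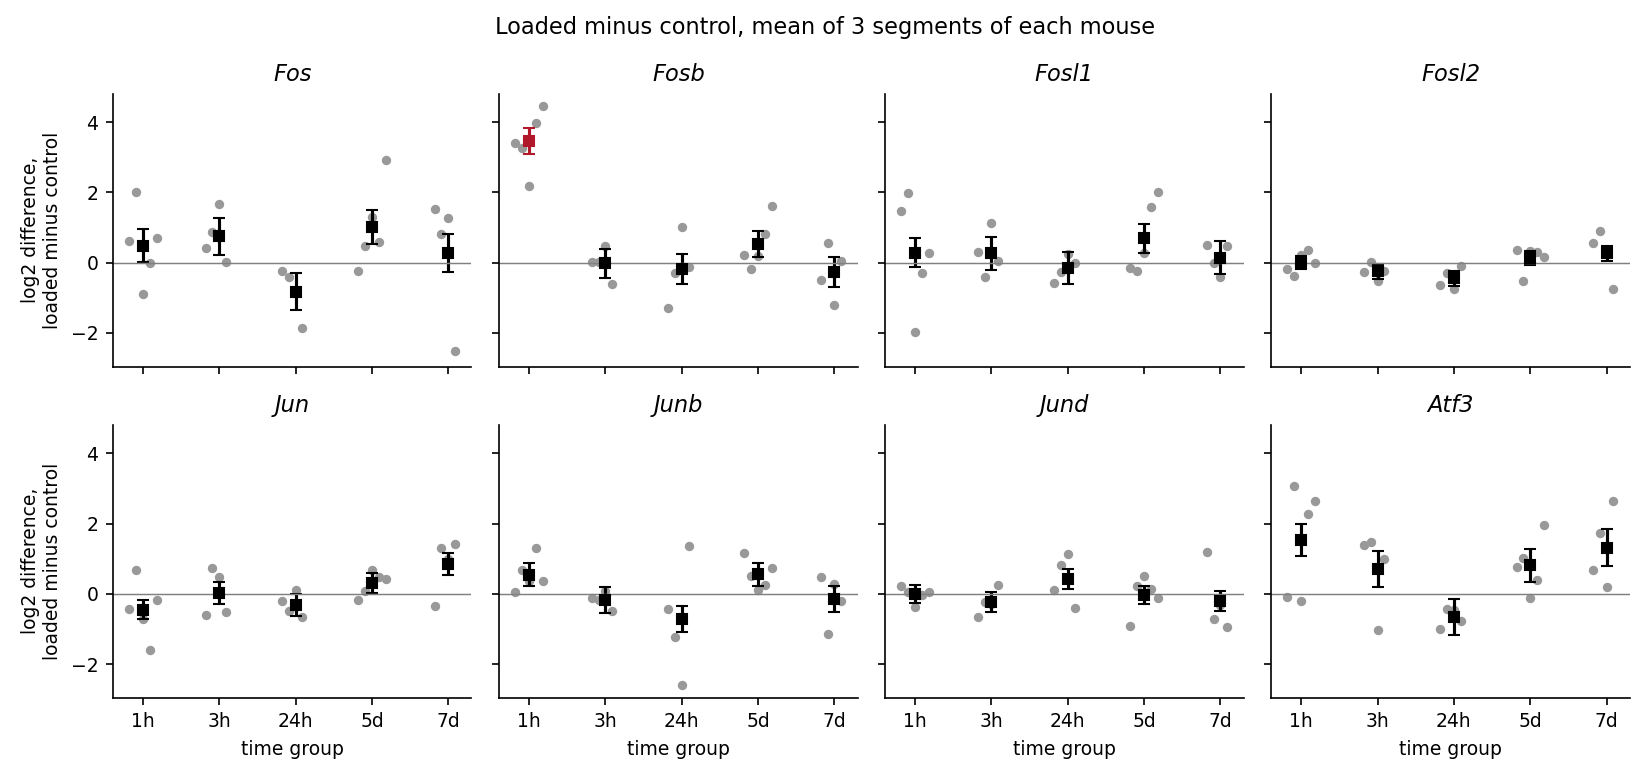
Loaded minus control difference of each member on the log2(normalized count + 1) scale, averaged over the 3 segments of each mouse, at the 5 times; grey points are mice and squares with bars are the limma mean ± SE, in red where called. Fosb at 1 h, with 5 mice between 2.19 and 4.47, is the 1 called value, and the other means lie between -0.82 and 1.54.

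Fos, the founding gene of the family, did not follow Fosb. Shell libraries at 1 h had Fos at 39.4, 15.1, 12.5, 10.5 and 22.1 in loaded limbs, against 6.55, 9.07, 18.3, 7.16 and 6.78 in control limbs. Loaded limbs were higher in 4 of 5 mice, and the groups overlapped through mouse 3. In the proximal diaphysis Fos was at 59.5, 46.2, 21.6, 18 and 15.3 in loaded limbs, against 39.5, 11.9, 6.62, 22.2 and 17.9 in control limbs. In the mid-diaphysis it ran from 5.86 to 262.2 in loaded and from 13.7 to 93.8 in control limbs, with a library that stood apart at each top. The average at 1 h was 0.49 (95% interval -0.49 to 1.46, limma adjusted p = 0.999), with higher values in 9 of 15 pairs. By mouse the averages were 0.63, 2.02, -0.90, -0.02 and 0.70, with mid-diaphysis pairs of 3.52 in mouse 2 and -3.75 in mouse 3 that each use a library that stood apart.

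Larger Fos averages at 3 h and 5d did not pass either. At 3 h Fos in the proximal diaphysis was at 11.8, 10.3, 11.9 and 26.7 in loaded limbs, against 4.31, 7.18, 0 and 2.44 in control limbs, and the groups did not overlap, as for 2.18% of genes tested there. The difference was 2.11 ± 0.86 (adjusted p = 0.455), and 1 of its control libraries, that of mouse 3, had few genes detected. It also uses mouse 2, whose cartilage genes ran against the segment labels. At 5d the average was 1.01 ± 0.48 (adjusted p = 0.836), and it was 0.36 without the 4 libraries.

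Fosl1, which encodes Fra-1, was close to undetected in bone. Outside the 4 libraries it was at most 9.34, and in control limbs it had no read in 16 of 22 shell, 17 of 22 proximal and 19 of 22 mid-diaphysis libraries. Its averages ran from -0.15 at 24 h to 0.70 at 5d, and the 5d value was -0.10 without the 4 libraries. Fosl1 lies on chromosome 19 and shares bases with Ccdc85b on the other strand. No source used here states whether the counting used strand, so reads of the pair cannot be told apart.

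Fosl2, which encodes Fra-2, was detected at 10 or more in every library and was not called after loading. At 1 h the shell had 239.4, 236.6, 221.9, 280.2 and 275.2 normalized counts in loaded limbs, against 255.5, 251.8, 267.7, 243.3 and 238.3 in control limbs. The average was 0.00 (95% interval -0.40 to 0.40). At 24 h Fosl2 was lower in the loaded limb in 11 of 12 pairs. The average then was -0.45 ± 0.22 (adjusted p = 1.00), under 0.05 before adjustment only.

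Among the Jun genes, Jun encodes the classical partner of Fos. At 1 h Jun in the proximal diaphysis was at 77.6, 131.9, 110.9, 29.7 and 15.3 in loaded limbs, against 41.1, 97.9, 91.4, 90.8 and 111.7 in control limbs. It was higher in 3 mice and lower in 2, and the groups overlapped. The average over segments was -0.45 (95% interval -1.02 to 0.12), with 8 of 15 pairs higher. At 7d it was 0.84 ± 0.31 (adjusted p = 0.256), and 0.46 without the 4 libraries and the 3 with few genes.

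Junb encodes a Jun protein of weaker activity that also answers early signals. In the shell at 1 h Junb was at 69, 96.8, 97.8, 96.1 and 113.3 in loaded limbs, against 55.7, 73.7, 67.4, 53.7 and 63.9 in control limbs. Each loaded library was above its own control and 4 of 5 were above all controls, with mouse 1 below the highest control. Averaged over segments, Junb was higher in 5 of 5 mice at 1 h. So was Fosb among the members, and 1.67% of the genes tested were. Its average of 0.55 (95% interval -0.12 to 1.22, adjusted p = 0.999) did not pass. At 5d Junb was again higher in 5 of 5 mice, as were 3.63% of genes, and in 12 of 15 pairs, the same number as at 1 h. Mid-diaphysis libraries at 5d had 73.3, 60.9, 69.5, 55.7 and 148.1 in loaded limbs, against 32.6, 34.1, 50.6, 51.2 and 43.6 in control limbs, with no overlap, as for 0.674% of genes, and those of loaded mice 4 and 5 are libraries that stood apart. The 5d average was 0.55 (95% interval -0.12 to 1.23, adjusted p = 0.890) and did not pass. At 24 h it was -0.73 ± 0.37, where the loaded limb of mouse 3 had 1.89 for shell and 3.47 for proximal diaphysis, against 46.3 and 32.2 in its control limb.

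Jund, which is expressed steadily in most cells, showed no loading difference past the threshold at any time. The average was -0.01 at 1 h (95% interval -0.53 to 0.51) and at most 0.43 at the other times, the value at 24 h. The mid-diaphysis of loaded mouse 1 at 7d had 1680.3 normalized counts, against 171.7 in its control limb, and no other library exceeded 520.9.

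Atf3, a stress-induced zipper gene, had the largest average at 1 h among the 7 members not called. In the shell it was at 11.3, 8.61, 3.76, 6.46 and 15.5 in loaded limbs, against 2.46, 2.27, 2.49, 5.96 and 0.97 in control limbs. In the proximal diaphysis it was at 0, 9.89, 10.8, 14.8 and 5.46 in loaded limbs, against 3.29, 3.97, 0, 0 and 0 in control limbs. In the mid-diaphysis it ran from 0 to 89.9 in loaded and from 0 to 59.8 in control limbs. Loaded limbs were higher in 12 of 15 pairs and lower in 2, and the groups overlapped in every segment.

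The Atf3 average was 1.54 ± 0.46 (95% interval 0.59 to 2.48, adjusted p = 0.999), and it was 1.64 without the 4 libraries (adjusted p = 0.990). By mouse it was -0.09, 3.06, -0.20, 2.27 and 2.64, so 3 of 5 mice were higher. At 7d Atf3 was higher in 4 of 4 mice, as were 8.28% of the genes tested, with an average of 1.32 ± 0.52 (adjusted p = 0.279). Of the 14 loaded libraries at 1 h outside those that stood apart, 4 exceeded all the others in Atf3.

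**Figure D3:**
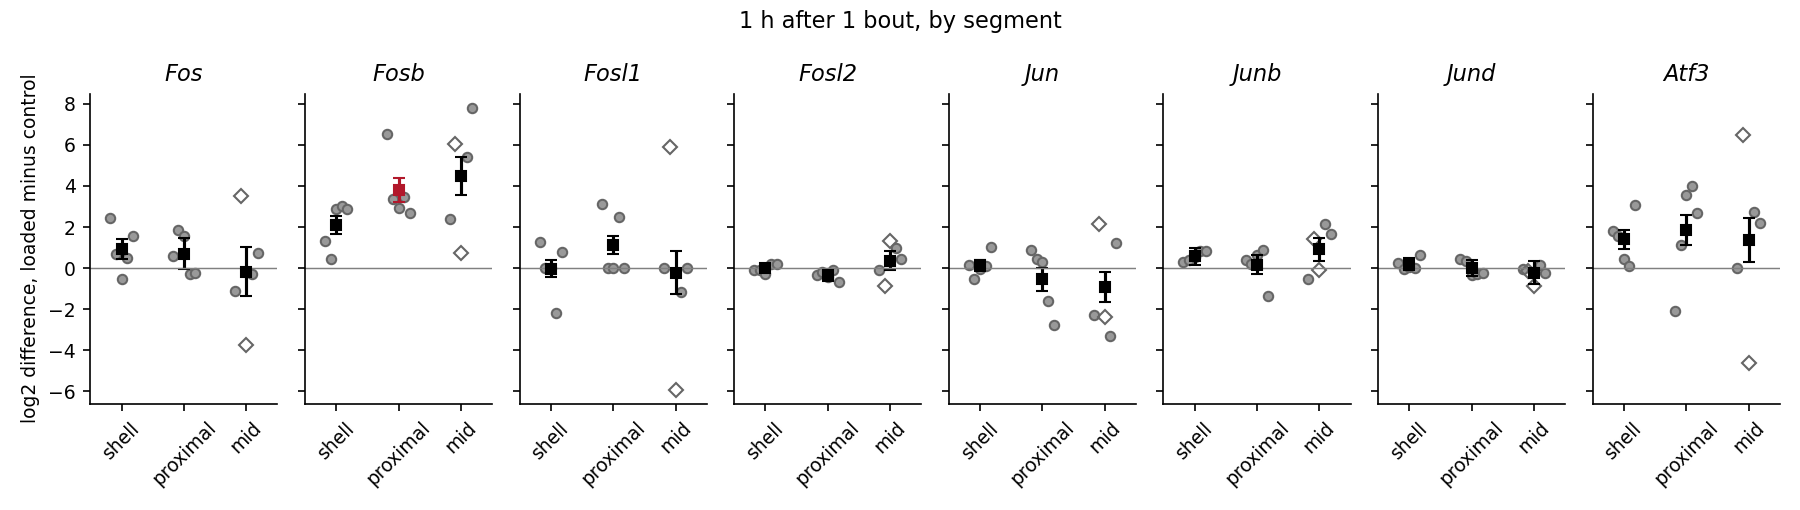
Loaded minus control difference of the 8 members 1 h after 1 bout on the log2(normalized count + 1) scale, by segment, with 1 point per mouse, open diamonds for pairs that use a library high in Msln, and squares with bars for the limma mean ± SE. Fosb is above 0 in every pair of every segment, and in red in the proximal diaphysis where it was called (3.79 ± 0.58), while Fos, Fosl1, Jun and Atf3 in the mid-diaphysis spread widely through the diamonds.

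Across the 15 combinations of segment and time, 120 tests of a member were made by limma. Of these 1 was called, Fosb in the proximal diaphysis at 1 h, and 12 had an unadjusted p under 0.05, where 5.2% of all genes' tests did. The 11 not called were Fosb in shell and mid-diaphysis at 1 h, Atf3 in shell and proximal diaphysis at 1 h and in mid-diaphysis at 5d, Fosl1 in proximal diaphysis at 1 h and mid-diaphysis at 5d, Fosl2 and Junb in shell at 24 h, Fos in proximal diaphysis at 3 h and Jun in proximal diaphysis at 7d. In the averages 0 of 8 members were called at 3 h, where 0% of genes were called, 0 at 24 h (0.00766% of genes, all lower), 0 at 5d (0.0383% of genes, 0.0307% lower) and 0 at 7d (0.123% of genes, 0.107% higher). Members with an unadjusted p under 0.05 numbered 0 at 3 h, 1 at 24 h, 1 at 5d and 2 at 7d, where 8.53%, 3.2%, 5.89% and 12.2% of all genes had one. edgeR called 1 member in all averages together, again Fosb at 1 h. The response of no member differed between segments at any time by limma or edgeR, though Fosl1 and Atf3 were under 0.05 before adjustment at 5d. In mid-diaphysis at 5d the Fosl1 differences were 0 in mice 1 to 3, and 5.53 and 6.02 in mice 4 and 5. The latter use libraries through which Fosl1 passed the filter, so its unadjusted p values at 5d are not read as a result. For Atf3 the differences of mice 1 to 5 there were 2.44, 3.32, 0, 3.25 and 5.84.

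The 4 libraries high in Msln carried a pattern of members of their own. Fosl1 was at 59.5 in loaded mouse 2 and 59.8 in control mouse 3 at 1 h, and at 45.3 and 64.0 in loaded mice 4 and 5 at 5d. Fos was at 262.2, 93.8, 128.1 and 148.1 in these libraries in the same order, against at most 76.2 elsewhere, so both genes lay above every other library. For Fosl1 this was fixed by the filter on low values, which it passed through these 4 libraries alone. Jun was at 440.1, 233.8, 224.9 and 275.1, above the other 40 mid-diaphysis libraries, whose highest was 166.1. Across all genes, 513 of 13050 (3.93%) lay above the other 40 mid-diaphysis libraries in all 4, and 317 (2.43%) lay below.

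Atf3 was at 89.9 in loaded mouse 2 at 1 h, above the 63.6 that was highest elsewhere, and at 55.7 to 59.8 in the other 3 of these libraries. Fosb (43.4 to 65.4) was within the range of the other libraries only through loaded libraries at 1 h, which reached 224.7. The 63.6 of Atf3 was also in a loaded library at 1 h. Outside the loaded libraries at 1 h and these 4, Fosb was at most 6.60 and Atf3 at most 13.6. Control mouse 3 at 1 h and loaded mice 4 and 5 at 5d lay above these values, with Fosb at 43.4, 65.4 and 61.1. Fosl2 (166.8 to 181.5), Junb (55.7 to 233.1) and Jund (146.1 to 224.4) were not apart from the other libraries in all 4. Of the 6 osteocyte markers, Dmp1 had a median of 16.4 in the 4 libraries, against 151.6 over all libraries, and Sost, Phex and Mepe were also lower there by their medians. Fgf23 had no read in the 4, and Pdpn ran the other way, with a median of 779.7 against 170.7 over all libraries. The libraries belonged to 3 loaded limbs and 1 control limb, and the part of their tissue makeup in the member levels was not tested.

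**Figure D4:**
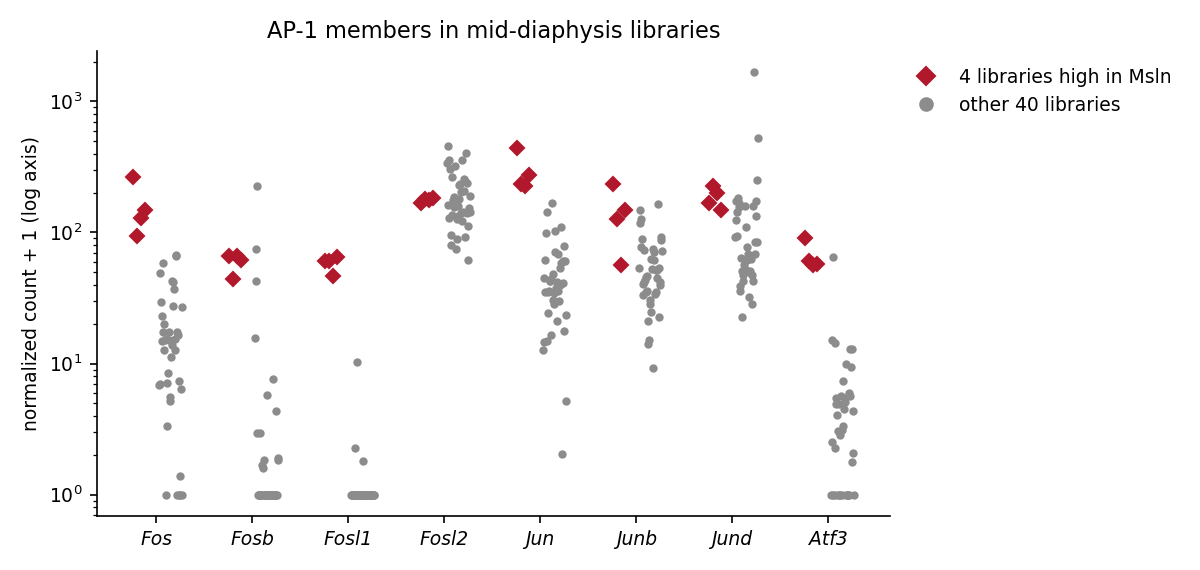
Normalized count + 1 (log axis) of each member in the 4 mid-diaphysis libraries high in Msln, as red diamonds, and in the other 40 mid-diaphysis libraries, as grey points. Fos, Fosl1 and Jun stand above all 40, with Fosl1 at 45.3 to 64.0 against at most 9.34, and Fosl2 lies in the middle of the others. Fosl1 passed the filter on low values through these 4 libraries alone, which fixed its place above the others. Levels of different genes are not on a common scale per length.

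Control limbs show the members without direct loading of the bone. Fosl2 averaged 268.5 ± 65.2 in shell, 226 ± 80.7 in proximal and 183.9 ± 78.6 in mid-diaphyseal control libraries (SD, n = 22 mice). Its shell level was the higher in 18 of 22 mice, by 0.63 ± 0.16 (95% interval 0.31 to 0.96, limma adjusted p = 0.0122). Fosl2 was the 1 member called there, where 971 genes (7.44%) were called and 876 of them were higher in the shell. Its shell minus proximal difference of 0.30 ± 0.13 (adjusted p = 0.139) and its proximal minus mid difference of 0.33 ± 0.18 (adjusted p = 0.605) did not pass, so neighbouring segments were not shown to differ.

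None of the other 7 members was called between the 3 control segments. Fos averaged 11.5 ± 3.8 in shell, 12.6 ± 10.8 in proximal and 24.2 ± 25.7 in mid-diaphyseal libraries, and 20.9 ± 21 in mid-diaphysis without the library that stood apart. Jun averaged 64.4 ± 28.6, 68.5 ± 39.9 and 66.1 ± 56.4 in the same order, and Junb 58.2 ± 24.5, 55.6 ± 30 and 52.2 ± 28.2. Jund averaged 102.7 ± 45.5, 101.5 ± 85.3 and 119.5 ± 111.1. Fosb, Fosl1 and Atf3 averaged under 5 in each segment, near the worth of a few reads. No member was called in the shell against the proximal diaphysis, where 6.51% of genes were, or in the proximal against the mid-diaphysis, where 0.199% were, and Fosl2 alone had an unadjusted p under 0.05 in the first of these.

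The mice of the 5 times differed in their control limbs. Jund averaged 135.7 ± 31 at 1 h, 60.6 ± 13.6 at 3 h, 64.7 ± 4.32 at 24 h, 71.1 ± 25.8 at 5d and 209.7 ± 58.4 at 7d (SD over mice of the mean of 3 segments; limma F test, adjusted p = 1.04e-04). Every control mean of a mouse at 7d, from 151.8 upward, lay above every one at 3 h, 24 h and 5d, of which the highest was 100.6. Junb was also highest at 7d and next at 1 h, at 70.2 ± 18.7, 36.7 ± 5.56, 36.3 ± 15.4, 47.5 ± 17.1 and 84.1 ± 15.3 (adjusted p = 0.0154).

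Jun ran otherwise, at 94.6 ± 37.4, 51.1 ± 23.2, 64.4 ± 14, 69.5 ± 37.4 and 44.2 ± 13.1 from 1 h to 7d (adjusted p = 0.0274), and it was not called without the 7 libraries with few genes or high Msln (adjusted p = 0.328). Nor was it called with mouse 2 or 3 of the 1 h group, or mouse 1 or 2 of the 7d group, left out, with an adjusted p of up to 0.0991. In that test 2798 genes (21.4%) were called, so 3 of 8 members is read beside a background that is itself high. The loaded limbs of the same mice had Jund at 131.5, 57.6, 93.3, 71.1 and 267.3 from 1 h to 7d. The share of reads on the ribosomal RNA gene Rn45s also differed between the control libraries of the 5 times. Its median from 1 h to 7d was 6.10, 28.9, 38.2, 38.9 and 5.79% for mid-diaphysis, 2.84, 9.02, 20, 7.60 and 3.81% for proximal diaphysis and 1.83, 4.10, 5.95, 5.36 and 1.80% for shell. It was lowest at 1 h and 7d in each segment, and its part in the Jund, Junb and Jun levels was not tested. Each time used different mice, so the time after loading and the mice or day of study cannot be told apart. At 7d the control libraries of 437.9 (proximal mouse 2) and 520.9 (mid-diaphysis mouse 4) were 2 of those with few genes detected; without the 7 libraries Jund had an adjusted p of 1.90e-04.

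**Figure D5:**
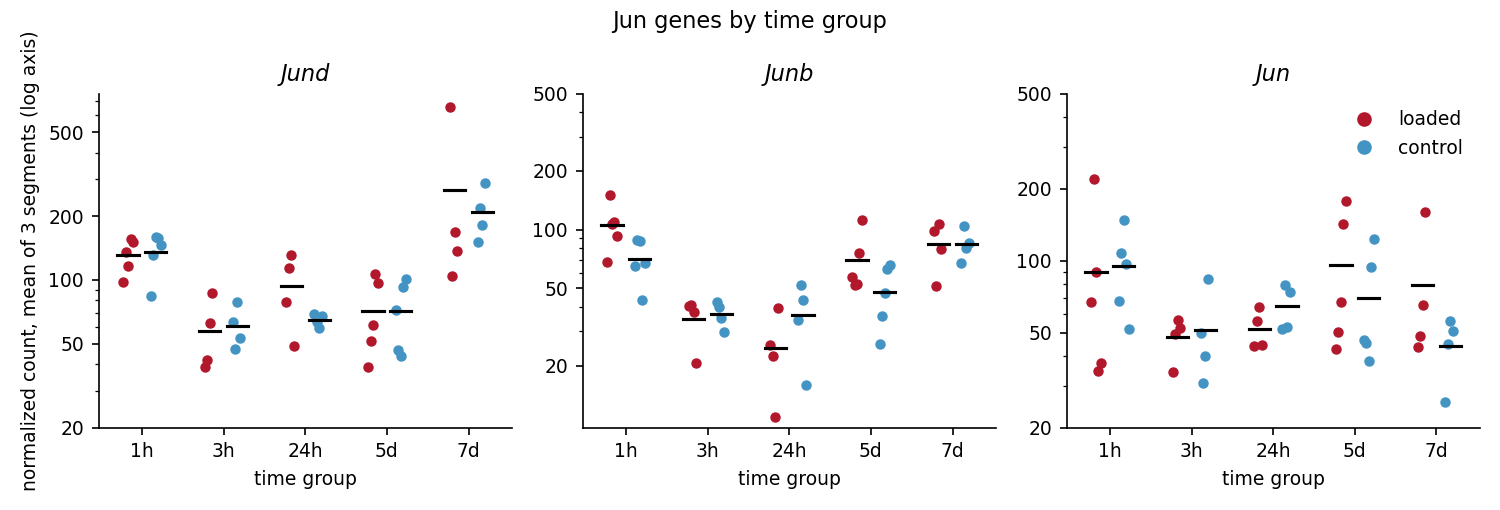
Normalized count of Jund, Junb and Jun as the mean of the 3 segments of each mouse (log axis), with loaded limbs in red to the left of control limbs in blue at each time and black lines at the group means. Control Jund at 7d (mean 209.7) lies above the 3 h, 24 h and 5d groups (60.6 to 71.1), and loaded points overlap control points at each time.

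Genes around the family were read from 5 lists. The 24 other bZIP genes measured, among them Batf, Jdp2, Maff and Atf4, had 0 members called in any loading average. At 1 h, 1 of the 24 was under an unadjusted p of 0.05, where 3.72% of all genes were. Their median at 1 h was 0.03, against -0.05 over all genes and 0.39 over the 8 AP-1 members. Of 20 genes of the kinases and serum response factors upstream, and of 16 regulators that shut the response off, such as the phosphatase gene Dusp1 and the messenger decay gene Zfp36, 0 were called in a loading average. In each of these lists 1 gene had an unadjusted p under 0.05 at 1 h, beside the same 3.72% of all genes. Of 14 other early response genes, Egr1 was called at 1 h and Ier5 at 7d.

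Egr1, a zinc finger immediate early gene, was the second gene called at 1 h beside Fosb. Shell libraries had Egr1 at 157.7, 173.2, 188, 128.4 and 217.8 in loaded limbs, against 98.3, 102.1, 87.3, 79.9 and 78.5 in control limbs, with no overlap. Its average was 1.46 ± 0.27 (adjusted p = 0.0364), a call that was lost with a pseudocount of 0.5, with no filter, with a mean of at least 50, without the replicate block and by edgeR with TMM scaling. It was 0.81 ± 0.30 at 3 h (adjusted p = 0.480). Ier5 was at 1.24 ± 0.21 at 7d (adjusted p = 0.00854), and 0.83 by edgeR with the authors' scaling, where it was not called (adjusted p = 0.166).

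The 20 measured genes that AP-1 is known to act on in bone or elsewhere, from collagenase Mmp13 to the osteoclast protease Ctsk, had 0 called in a loading average by limma. Mmp13 at 24 h was -1.69 ± 0.32 (adjusted p = 0.0684), and it was called lower without the 4 libraries (adjusted p = 0.0225), with a shared spread (0.0330) and by edgeR with the authors' scaling (0.0264). At 1 h the median of the 20 genes was -0.02, and 2 had an unadjusted p under 0.05, where 3.72% of all genes did. At 7d the median was -0.39, against 0.12 over all genes, with 4 under 0.05, where 12.2% of all genes were. Between control segments, 7 of the 20 were higher in shell than in mid-diaphysis, where 6.71% of all genes were. This is the contrast in which Fosl2 was called. The 7 genes were Mmp13 (1.06 ± 0.24), Mmp9 (1.04 ± 0.25), Timp1 (0.81 ± 0.23), Hmox1 (0.95 ± 0.19), Acp5 (1.54 ± 0.26), Ctsk (0.89 ± 0.26) and Nfatc1 (0.68 ± 0.18). Of the osteoclast markers, 4 of 5 were higher in the shell, Ocstamp and the genes Mmp9, Acp5 and Ctsk already counted above. The median was 1.29 over the osteoclast list and 0.17 over all genes. Chondrocyte markers were higher there for 5 of 6 (median 3.42) and endothelial markers for 4 of 5 (median 1.55). The part of these cell types in the Fosl2 difference was not tested.

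The bZIP genes Jdp2 (0.92 ± 0.22) and Atf5 (1.03 ± 0.32) were also higher in shell than in mid-diaphysis of control limbs. Of the AP-1 members 1 of 8 was higher there, beside 6.71% of all genes.

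Across the 66 loaded minus control differences, the gene most like Fosb was Egr1 (Pearson r = 0.58). Next came Tnfaip6 (0.51), Gm5595 (0.51), Csrp3 (0.51) and Zmat3 (0.50). Without the differences that use the 4 libraries, Csrp3 (0.55) came before Egr1 (0.50), Fbn2 (0.47), Kcna7 (0.47) and Lmod2 (0.47). Csrp3 is a striated muscle gene. Jun was most like Tgfb2 (0.78, and 0.75 without the 4 libraries) and Junb most like Cstb (0.76, and 0.75). Fosl1 was most like 3110039M20Rik (0.88) and Bnc1 (0.86), and without the 4 libraries its highest r was 0.48. Among pairs of members the highest r was that of Fosl1 with Atf3, 0.53 over all differences and 0.04 without the 4 libraries. Fosb with Atf3 had 0.43, and 0.27 without them. The differences share mice, segments and depth, and the r values are descriptions of these libraries.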

How the data were processed

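The table deposited by the authors holds normalized counts per gene symbol, handled here as a signal of whole reads divided by a library size factor. STAR, FastQC, DESeq2 and the build mm10 are named, without their roles, per the submitters' processing notes; the counter, its strand setting and the annotation are not given in the sources used here. After division by the library's step, 100% of values were whole reads within 0.02, so reads were recovered and totals ran from 290325 to 5410458 per library. Precision at low counts is limited by these totals.

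Values were taken as log2(normalized count + 1) for the 13050 genes with at least 10 in at least 4 libraries. Loaded minus control differences within each mouse were fitted by limma 3.58.1 (R 4.3.3), averaged over segments and by segment, with F tests over times and segments. The F test over segments held mouse terms. Control segments were compared in pairs as differences within each mouse, and control limbs over times as the mean over segments of each mouse. p-values are two-sided with Benjamini-Hochberg adjustment over all genes. The limbs of a pair come from the same mouse by the column names; their deviations had a median correlation of 0.172 in shell, 0.0483 in proximal and -0.00332 in mid-diaphysis. Alternatives were other pseudocounts, filters and scalings, edgeR 4.0.16 quasi-likelihood on the recovered reads (2 genes called in the 1 h average with the authors' scaling, 1 with TMM), a shared spread, no mouse block, leaving out each mouse, leaving out 4 or 7 libraries and a muscle covariate. Leaving out the 4 libraries in the correlations was chosen after seeing the data. The procedure was tested on simulated data without differences between mice. The genes changed there had higher mean counts than Fosb, Fosl1 and Atf3, so that test does not cover genes this low. The members and gene lists were chosen with earlier results of these data known. All members are named; other genes are those called in a list, and the nearest by correlation. Promoters are RefSeq, GRCm38.p6, and gene positions GENCODE M21 on GRCm38. A result of 1 listed gene between control segments is not reported here.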

Additional observations from a re-analysis of the deposited data

Results flagged for a closer look

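Fosb differed between times. Its loaded minus control difference at 1 h exceeded the mean of the other 4 times by 3.45 on the log2 scale (limma adjusted p = 6.39e-05), with all 15 pairs higher at 1 h. Fosb passed the filter on low values only with its loaded libraries at 1 h.

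Among 46 groups of 4 or 5 values looked at, 3 held a value far from the others, where chance gives about 1 group in 20. Fosb in loaded mid-diaphysis at 1 h was 224.7 in mouse 5, against 14.6 to 73.8 in the other loaded mice. Fosb in control mid-diaphysis at 1 h was 43.4 in mouse 3, whose library was 1 of the 4 high in Msln, against 0 to 1.96 in the other control mice. The Fosl2 difference averaged over segments at 5d was -0.53 in mouse 2, below the other 4 mice.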

How the results depend on the processing

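No called value changed sign. Of 1440 recomputed values, 1402 either stayed called or stayed not called within 1 SE of the reported value. Among values not called, some near 0 changed sign, such as Fosb at 3 h, from -0.19 to 0.17 with 1 mouse left out. The Fosb average at 1 h ran from 2.23 to 3.92 over the alternatives and from 3.21 to 3.78 with 1 mouse left out, and was called each time. Under a mean of at least 50, where Fosb was not tested, 0 members were called in the averages, 0 by segment, 0 in the F test over times and 0 for 1 h against other times. By segment, calls of a member were summed over segments and times, so a gene called in several of them counts several times. These calls numbered 0 with a pseudocount of 0.5 and with either edgeR scaling. They numbered 2 with a pseudocount of 5, in shell and proximal diaphysis at 1 h. With a shared spread they numbered 3, in proximal and mid-diaphysis at 1 h and mid-diaphysis at 5d. With 1 mouse left out the number of calls ran from 0 to 2. It was 0 without mouse 1, 2 or 4 of the 1 h group. The F test over times called 0 members with either edgeR scaling (Fosb adjusted p = 0.0759 and 0.0811). The cause was not tested. In control limbs over times, 2 to 4 members were called with 1 mouse left out, and 2 with no filter or without 7 libraries, where Jun was lost. Without the replicate block the Fosb average at 1 h was 3.46 (limma adjusted p = 1.79e-06), and the block changed no count of members called. Fosl2 in shell minus mid-diaphysis ran from 0.57 to 0.71 and was always called. The control F test over times was not run with edgeR, a shared spread or no block, and DESeq2 was not run. Depth limits what can be said of Fosb, Fosl1 and Atf3 in control limbs.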
